A study of Sus scrofa with 27 samples.

Results

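The interleukin 1 (IL-1) family of the pig lung is described here through 9 genes, IL1A, IL1B, IL18, IL33, IL1R1, IL1RAP, IL1R2, NLRP3 and CASP1. They were chosen by name from a list of 10 family genes, and kept when at least 1 library held at least 10 counts. They are 9 of the 31908 genes of the count table. IL1B has no name in the table and was taken by its identifier. The antagonist gene IL1RN is not analysed here. The rule itself uses no measured value apart from this count minimum, but the family was picked with earlier results of these data known.

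The lungs came from Large-White pigs and were perfused outside the body (ex vivo lung perfusion, EVLP) after a period of cold ischemia. The donor model was a non-heart-beating one. All 9 lungs received Steen solution with methylprednisolone, a glucocorticoid, cefuroxime and heparin. In the Gold Standard group (GS, 5 pigs, numbered 9, 17, 44, 55 and 77) part of this perfusate was renewed at intervals. In the Pediatric Dialysis group (PD, 4 pigs, numbered 2, 3, 4 and 5) the perfusate was instead cleared by hemodialysis through a pediatric membrane. Each lung gave a biopsy after the cold ischemia and before perfusion (0h), at 6h and at 12h, which makes 27 RNA-seq libraries of whole lung tissue. An earlier publication had already described the PD lungs up to 6h, but drew its GS group from other animals. Neither group holds a lung kept without perfusion, so time outside the body and perfusion go together in every comparison with 0h.

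IL-1α and IL-1β, made from IL1A and IL1B, are alarm cytokines that act on the same receptor, a complex of IL1R1 and the accessory protein IL1RAP. IL1R2 is a decoy: it binds the ligands and carries no signal. IL-1β and IL-18 are made as inactive precursors and are cut by caspase-1, the product of CASP1, once a sensor such as NLRP3 has assembled an inflammasome. IL-1α and IL-33 are released from damaged cells and need no caspase-1, and IL-33 acts on another receptor that also uses IL1RAP. In the lung, IL-33 is known from epithelial and endothelial nuclei and IL-1β mainly from macrophages, monocytes and neutrophils.

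The genes lie on 5 chromosomes of Sscrofa11.1. On chromosome 3 the ligands IL1B (ENSSSCG00000039214, 43670109 to 43677125, plus strand) and IL1A (ENSSSCG00000008090, 43718368 to 43731119, plus strand) are neighbours. The receptors IL1R1 (ENSSSCG00000008162, 52192914 to 52288515, minus strand) and IL1R2 (ENSSSCG00000028331, 52367437 to 52406334, minus strand) lie on the same chromosome. IL1RAP (ENSSSCG00000021206) is on chromosome 13, from 127933682 to 128072348 on the plus strand. IL18 (ENSSSCG00000015037, 39834966 to 39873300) and CASP1 (ENSSSCG00000028711, 35186420 to 35200328) are both on the minus strand of chromosome 9. IL33 (ENSSSCG00000005203) is on chromosome 1, from 215899435 to 215941840, and NLRP3 (ENSSSCG00000013940) on chromosome 2, from 56892242 to 56977234, both on the minus strand. IL33 overlaps RANBP6 on the other strand, which holds 66873 counts against 34630 for IL33, and the strand setting of the counting is not given in the sources used here, so the IL33 values are uncertain. IL1B holds 5792 counts in the whole table, and each of its 7 annotated relatives between 0 and 42.

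The stretches in front of 4 of these genes are shown because IL1R1, IL1R2 and IL1RAP were called together in the results that follow, whereas IL1B was not called in GS. Each is the 250 bases before the start of the RefSeq gene, read 5′ to 3′ from Sscrofa11.1, and for IL1B it stops 17 bases earlier, where the gene model of the count table begins. They cover chr3:43669876-43670108 (plus strand) for IL1B, chr3:52334735-52334984 (minus) for IL1R1, chr3:52406394-52406643 (minus) for IL1R2 and chr13:127932989-127933238 (plus) for IL1RAP. Capitals mark matches to the motifs searched.
IL1B: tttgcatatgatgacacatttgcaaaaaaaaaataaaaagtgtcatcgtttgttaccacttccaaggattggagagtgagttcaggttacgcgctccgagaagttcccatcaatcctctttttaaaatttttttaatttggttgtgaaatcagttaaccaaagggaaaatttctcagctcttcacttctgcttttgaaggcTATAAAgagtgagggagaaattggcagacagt
IL1R1: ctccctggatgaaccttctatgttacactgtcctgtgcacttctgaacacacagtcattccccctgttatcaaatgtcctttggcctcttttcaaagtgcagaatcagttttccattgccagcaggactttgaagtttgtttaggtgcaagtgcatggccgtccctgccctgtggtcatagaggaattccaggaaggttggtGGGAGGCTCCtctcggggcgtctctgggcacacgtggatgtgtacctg
IL1R2: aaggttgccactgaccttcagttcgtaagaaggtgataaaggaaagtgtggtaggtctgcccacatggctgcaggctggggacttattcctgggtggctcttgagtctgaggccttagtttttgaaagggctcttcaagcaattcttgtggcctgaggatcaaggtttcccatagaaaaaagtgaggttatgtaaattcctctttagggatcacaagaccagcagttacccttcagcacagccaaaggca
IL1RAP: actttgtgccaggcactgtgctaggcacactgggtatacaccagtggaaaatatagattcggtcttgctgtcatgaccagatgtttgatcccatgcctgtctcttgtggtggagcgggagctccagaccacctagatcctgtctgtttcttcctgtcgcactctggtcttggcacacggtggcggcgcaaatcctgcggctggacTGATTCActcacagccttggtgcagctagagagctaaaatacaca
The motifs were the NF-kB consensus, the AP-1 site TGANTCA, the hexamer AGAACA, a single arm of the paired site that the glucocorticoid receptor binds, and the TATA box TATAAA, each on both strands. The TATA box was added after the sequences had been seen. No matches overlapped. IL1B held a TATA box at −49, IL1R1 an NF-kB match at −48, IL1RAP an AP-1 site at −45 and IL1R2 none, counted back from the RefSeq start. Among the other 5 members IL1A (−169) and NLRP3 (−56) held the hexamer, CASP1 (−84) and IL33 (−199 and −122) a TATA box, and IL18 none. Of 19539 promoters of this length, 14% hold the NF-kB match, 5.26% the AP-1 site, 10.3% the hexamer and 9.75% the TATA box. RefSeq lists several starts for IL1R1, and the one used lies upstream of the gene model that was counted. That model, on the minus strand, begins at 52288515, whereas the window printed begins at 52334735. The IL1R1 window and its NF-kB match are thus not directly in front of the counted gene. For IL18 and CASP1 the RefSeq start lies inside the counted model, so their windows, including the one without a match, are not the front of the counted gene.

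Library totals were 26335584 to 67522703 counts in GS and 14650700 to 21820935 in PD, so no PD library was as deep as any GS library, and depth cannot be told apart from the group. Within GS, the 6 libraries of pigs 9 and 17 held 26335584 to 41802541 counts and the 9 libraries of pigs 44, 55 and 77 held 51708598 to 67522703. Changes in GS are also given for each set, a split added after the values were seen, so calls within a set describe the libraries and test nothing. The 12h library of PD pig 2 stood apart, with 1.65% of its counts on mitochondrial genes and 18979 genes detected. GS pig 17 also had low mitochondrial shares, 2.41%, 3.14% and 2.41% at 0h, 6h and 12h, against at least 5.74% in the other GS libraries. The 8 lung markers were present in every group. Their summed level was 7283 to 17101 CPM (counts scaled to a common library size) in GS and 18359 to 91683 in PD, but in PD the surfactant gene SFTPC alone held 11726 to 85010 CPM. The median log2 difference of the 8, PD against GS, was −0.07, −0.08 and −0.04 at 0h, 6h and 12h. CDH5 was called lower in PD at all 3 times and SFTPB at 0h and 12h. SFTPC was called higher at all 3 times and SCGB1A1 at 12h. Red cell markers at 0h summed to 0.355 to 10.5 CPM in GS and 51.6 to 239 in PD. Levels below are CPM after TMM scaling, and can be compared between libraries but not between genes.

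**Figure D1:**
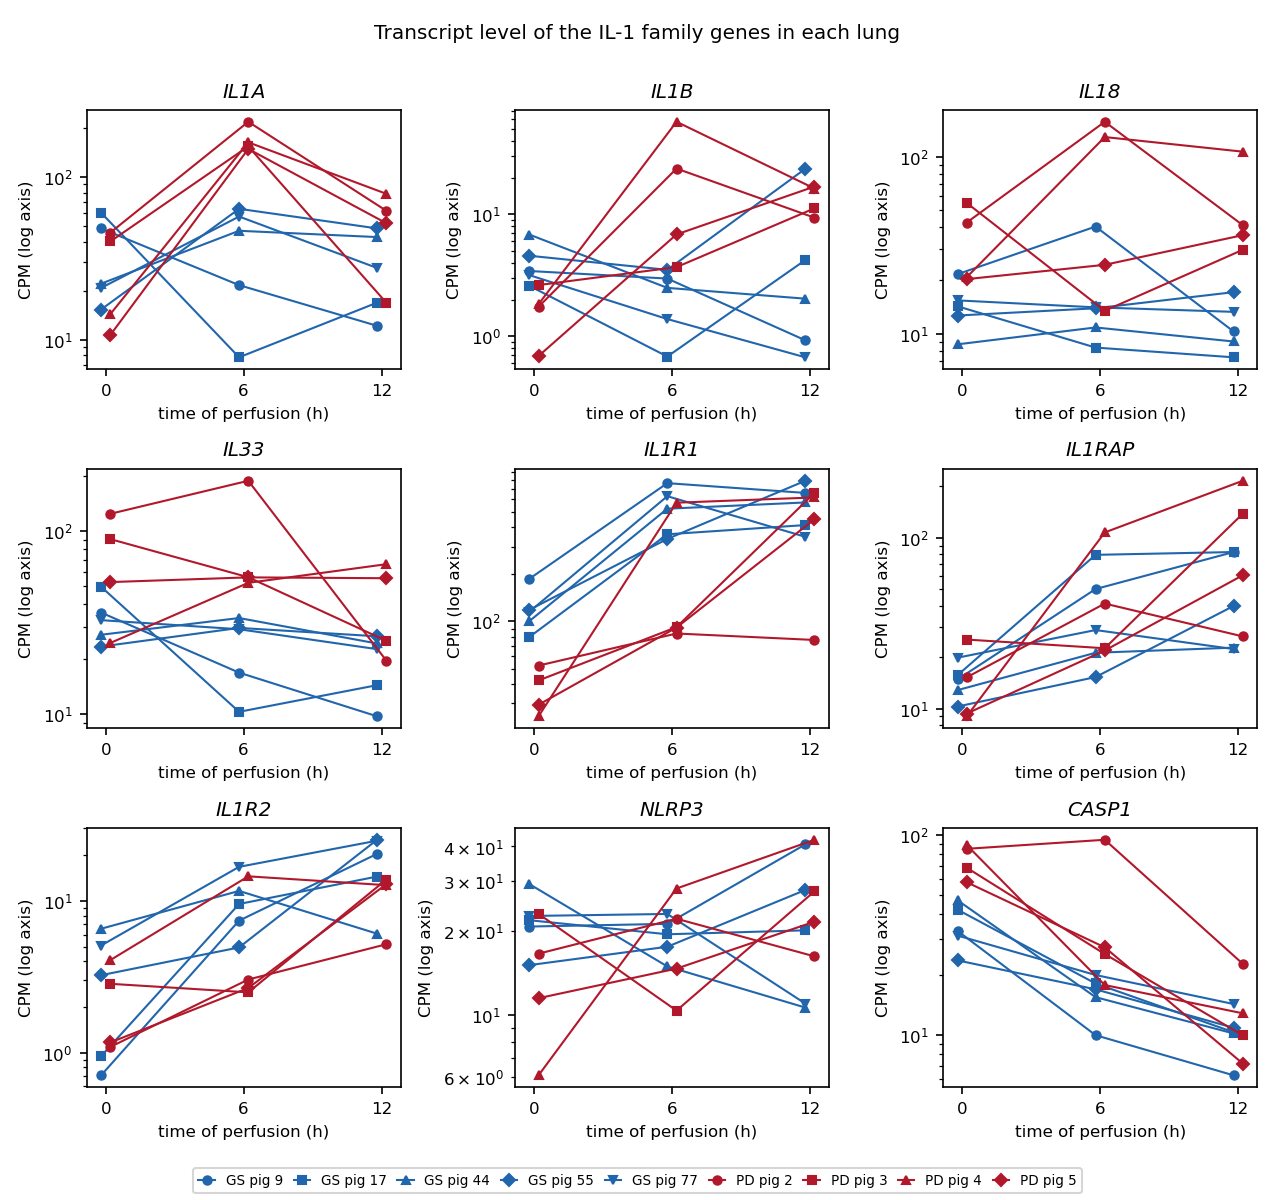
Level of each of the 9 genes in every lung at 0h, 6h and 12h of perfusion, in CPM on a log axis, with 1 line per pig (GS blue, PD red). IL1R1 was higher at 6h and at 12h than at 0h in all 9 lungs, CASP1 was lower at 12h than at 0h in all 9, and IL1A and IL1B of the PD lungs lay above all GS lungs at 6h.

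Changes from 0h were tested in each group with the pig as a block, and a gene was called when its adjusted p was under 0.05 and its fold change at least 2. In GS, IL1R1, IL1R2 and IL1RAP rose and CASP1 fell at 6h and again at 12h, so 4 of 9 members were called at both times. Of all 18594 genes tested, 11.1% were called at 6h (5.5% higher, 5.56% lower) and 15.7% at 12h (6.99% higher, 8.66% lower). In PD at 6h none of the 9 was called, where 0.142% of 15545 genes were (0.135% higher, 0.00643% lower), although 6 had an unadjusted p under 0.05 against 9.41% of all genes (edgeR). DESeq2 called 2, IL1A and IL1B, and 2.75% of all genes (428). In PD at 12h the same 3 receptor genes and IL1B rose and CASP1 fell, 5 of 9, where 5.98% of all genes were called (3.22% higher, 2.76% lower). All 5 of these PD calls were lost without pig 3 or without pig 5, and IL1B, IL1R1 and IL1RAP also without pig 4. The log2 changes then still lay between 2.09 and 3.50 for the 4 genes that rose and at −2.65 and −2.58 for CASP1. The median log2 fold change of the members was −0.05 and −0.29 in GS and 1.15 and 1.0 for the PD lungs (6h and 12h), and that of all genes was between −0.08 and −0.02.

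**Figure D2:**
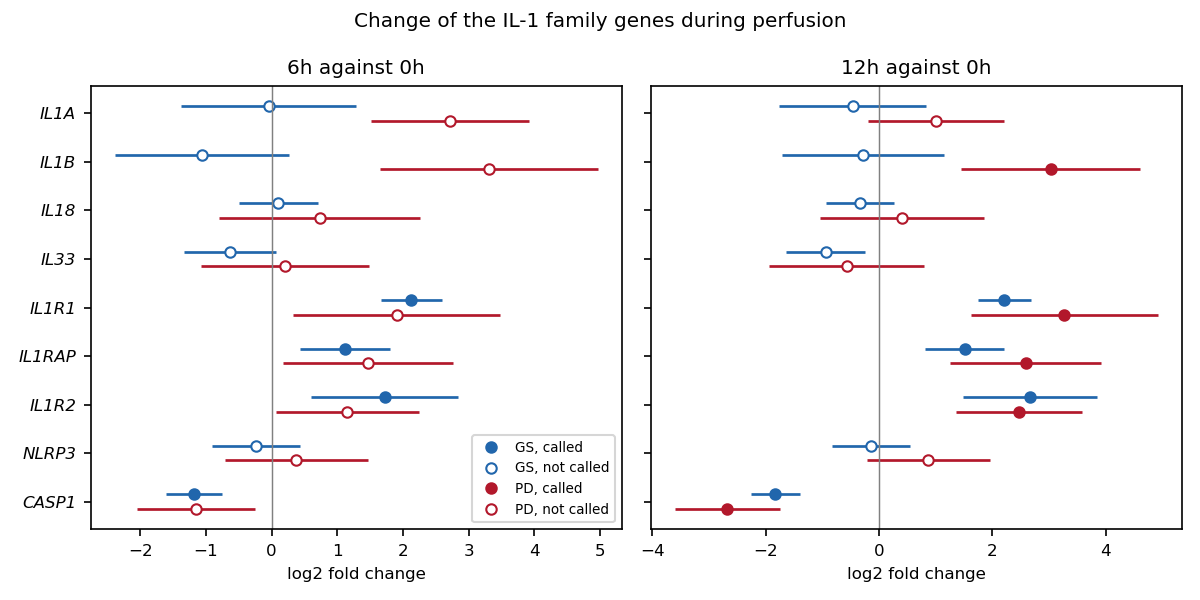
Log2 fold change of each gene at 6h (left) and 12h (right) against 0h, with its 95% confidence interval, in GS (blue, 5 pigs) and PD (red, 4 pigs). Filled points passed the call. The 3 receptor genes lie to the right of zero and CASP1 to the left in both groups at both times, while IL1A and IL1B lie to the right in PD only at values of 1.0 to 3.31.

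IL1R1, the signalling receptor, was the member with the smallest p in GS. At 0h its level was 187, 79.4, 100, 118 and 115 CPM in GS pigs 9, 17, 44, 55 and 77, and 52.2, 42.0, 24.8 and 29.4 CPM in PD pigs 2, 3, 4 and 5. At 6h it was 762, 359, 523, 336 and 629 CPM in the GS pigs and 83.7, 91.9, 572 and 91.3 CPM in the PD pigs. At 12h it was 660, 412, 574, 789 and 346 CPM in the GS pigs and 76.1, 660, 618 and 448 CPM in the PD pigs. All 9 lungs were above their own 0h at both times. The share of all genes with every lung changed in the same direction is not given here. PD pig 4 had reached the GS range at 6h and the other PD lungs had not, and at 12h only PD pig 2, whose library stands apart, remained below it. In GS the rise was 4.36-fold at 6h (log2 2.12 ± 0.22 SE, adjusted p = 0.000134) and 4.63-fold at 12h (log2 2.21 ± 0.22, adjusted p = 5.93e-05). In PD it was 9.63-fold at 12h (log2 3.27 ± 0.75, adjusted p = 0.0329), and the 6h value, log2 1.90 ± 0.72, was not called (adjusted p = 0.436). Both sets of GS pigs gave nearly the same size, 2.17 and 2.11 at 6h and 2.35 and 2.08 at 12h for the deeper and the shallower set.

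IL1RAP, the partner of IL1R1, rose in GS 2.17-fold at 6h (log2 1.12 ± 0.32, adjusted p = 0.0198) and 2.84-fold at 12h (log2 1.51 ± 0.32, adjusted p = 0.00323), and in PD 6.0-fold at 12h (log2 2.58 ± 0.60, adjusted p = 0.0341). At 0h it lay between 10.3 and 19.9 CPM in GS and between 9.01 and 25.3 CPM in PD. At 12h the PD lungs spread from 26.4 CPM in pig 2 through 60.3 in pig 5 and 138 in pig 3 to 215 in pig 4. The GS lungs fell into the 2 sets, with 82.4 CPM in both pigs 9 and 17 and 22.7, 39.8 and 22.3 in pigs 44, 55 and 77. At 6h the log2 change was 2.08 in pigs 9 and 17 and 0.62 in the other GS pigs, and only the first was called. At 12h it was 2.42 and 1.04, both called.

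IL1R2, the decoy receptor, rose in GS 3.29-fold at 6h (log2 1.72 ± 0.52, adjusted p = 0.0266) and 6.33-fold at 12h (log2 2.66 ± 0.55, adjusted p = 0.00268). In PD it rose 5.52-fold at 12h (log2 2.46 ± 0.51, adjusted p = 0.0252) after a value of log2 1.15 ± 0.49 at 6h that was not called. It started at 0.711 and 0.949 CPM in GS pigs 9 and 17, against 6.55, 3.24 and 5.08 in pigs 44, 55 and 77. At 12h the GS lungs held 20.4, 14.5, 6.08, 25.2 and 24.9 CPM in the same order and the PD lungs 5.18, 13.8, 12.7 and 12.9. The change was therefore largest in GS pigs 9 and 17, log2 3.36 at 6h and 4.38 at 12h, whereas the other 3 gave 1.08 and 1.90. In GS at 6h, IL1R2 lost its call without pig 9, 17 or 77 and IL1RAP without pig 17 (adjusted p of 0.0555, 0.114 and 0.0774, and 0.0778). The log2 changes were then 1.51, 1.39 and 1.75 for IL1R2 and 0.83 for IL1RAP. Both were also lost without the replicate block, at 1.58 for IL1R2 (adjusted p = 0.0750) and 1.40 for IL1RAP (adjusted p = 0.0680). IL1R2 was lost without the low-count filter (1.73, adjusted p = 0.0928), and IL1RAP in one fit of all libraries (1.13, adjusted p = 0.115).

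CASP1, the protease that matures IL-1β and IL-18, moved the other way. At 0h it stood at 33.1, 42.2, 47.0, 23.6 and 31.3 CPM in GS pigs 9, 17, 44, 55 and 77 and at 85.0, 68.3, 88.6 and 57.9 CPM in PD pigs 2, 3, 4 and 5. The groups did not overlap, as was so for 32.4% of all genes at 0h (15.4% with PD higher). At 6h it was at 9.97, 18.1, 15.4, 16.9 and 19.9 CPM in GS and at 94.3, 25.4, 17.7 and 27.4 CPM in PD. At 12h it was at 6.29, 10.3, 10.2, 10.9 and 14.3 CPM in GS and at 22.7, 9.96, 12.8 and 7.20 CPM in PD. Every lung was below its own 0h at 12h, and at 6h every lung except PD pig 2, again with no share over all genes given here. In GS it fell by 1.18 on the log2 scale at 6h (SE 0.20, adjusted p = 0.00145) and by 1.83 at 12h (SE 0.20, adjusted p = 8.44e-05), and in PD by 2.68 at 12h (SE 0.42, adjusted p = 0.0161). The 6h value in PD was −1.15 ± 0.41 and was not called (adjusted p = 0.406). In GS pigs 9 and 17 the log2 change was −1.46 at 6h and −2.24 at 12h, both called, and in pigs 44, 55 and 77 it was −0.93 at 6h, under 2-fold and not called (adjusted p = 0.0154), and −1.51 at 12h, called.

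NLRP3, the sensor that recruits caspase-1, was not called in any comparison. Its level over all lungs and times lay between 6.08 and 42.3 CPM, and its log2 change from 0h was −0.24 (95% interval −0.91 to 0.43) and −0.14 (−0.83 to 0.55) in GS and 0.37 (−0.72 to 1.46) and 0.87 (−0.22 to 1.95) in PD at 6h and 12h. In GS the sets gave −0.30 and −0.52 (pigs 44, 55 and 77) and −0.06 and 0.44 (pigs 9 and 17), none called. The lowest value, 6.08 CPM, was PD pig 4 at 0h and the highest, 42.3 CPM, the same lung at 12h.

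In bulk tissue, fewer cells of a type and less RNA per cell cannot be told apart. Over the same times none of 7 neutrophil markers tested was called in either group, but some were lower at an unadjusted p under 0.05 (edgeR). In PD these were S100A8 (log2 −1.52), S100A12 (−1.07) and MMP9 (−1.65) at 6h, and CXCR2 (−1.37) and MMP9 (−1.28) at 12h. In GS they were CXCR2 (−0.74) and LTF (−0.75), at 12h only. The median log2 change of the 7 was −0.34 and 0.09 in GS and −0.72 and −0.73 in PD at 6h and 12h. Of 10 monocyte and macrophage markers 1, CD14, was called higher in GS at 6h and 12h. At an unadjusted p under 0.05, FCGR1A was lower in GS at both times (log2 −0.60 and −0.73) and CD163 higher at 12h (0.53). None of the 10 was called in PD, where 2 had an unadjusted p under 0.05 at 12h. The median of the 10 was −0.11 and −0.06 in GS and −0.23 and −0.43 in PD at 6h and 12h. Of 7 lymphocyte markers 5 were lower in GS at an unadjusted p under 0.05 at both times, with a median over the 7 of −0.64 and −0.60. The share of all genes at that p is not given here for GS, so this count cannot be set against it. Of all genes 11.1% and 15.7% were called in GS at 6h and 12h. At 6h none passed the fold limit (CD2 −0.91, GNLY −0.85, CD79A −0.66, CD3D −0.64 and CD3E −0.45), and at 12h CD2 and GNLY were called lower. In PD CD3D was called lower at 12h. Markers of other cells were also called lower in GS, the red cell gene HBB at 6h and 12h (log2 −1.57 and −1.50), the endothelial KDR at 6h (−1.15) and the airway gene SCGB1A1 at 12h (−1.61). The summed neutrophil markers ran from 153 to 399, 206 to 275 and 163 to 443 CPM at 0h, 6h and 12h in GS. In PD they ran from 634 to 1254 (median 717), 237 to 1125 (336) and 255 to 1526 (438) CPM. Of these sums, S100A12 alone held 62.1 to 288 CPM in GS and 500 to 962 CPM in PD at 0h. At 0h S100A8 was also called higher in PD (73.1 to 242 CPM against 6.01 to 31.4 in GS). CSF3R was called lower in PD there (20.3 to 44.4 CPM against 33.6 to 127 in GS). No marker list of the neutrophils, monocytes and macrophages or lymphocytes was at 0. Their part in the changes of the members was not tested.

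IL1B was the member that differed most between the groups in its change. At 0h it was at 3.43, 2.60, 6.83, 4.58 and 3.18 CPM in GS pigs 9, 17, 44, 55 and 77 and at 1.75, 2.63, 1.84 and 0.691 CPM in PD pigs 2, 3, 4 and 5. At 6h it was at 2.98, 0.684, 2.50, 3.51 and 1.39 CPM in GS and at 23.7, 3.70, 57.3 and 6.84 CPM in PD. These levels did not overlap, as was so for 19.9% of all genes at 6h (11.1% with PD higher). At 12h it was at 0.930, 4.22, 2.04, 23.6 and 0.674 CPM in GS and at 9.39, 11.2, 16.3 and 16.9 CPM in PD, where GS pig 55 lay above all PD lungs. These are low levels, with 13 to 50 counts per PD library at 0h. In PD, IL1B was 9.91-fold its 0h level at 6h (log2 3.31 ± 0.75, adjusted p = 0.130, not called) and rose 8.17-fold at 12h (log2 3.03 ± 0.72, adjusted p = 0.0351). In GS the log2 values were −1.06 ± 0.62 and −0.29 ± 0.66, neither called (adjusted p = 0.214 and 0.750). The sets gave −1.20 and −0.27 (pigs 44, 55 and 77) and −0.78 and −0.21 (pigs 9 and 17), not called either.

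**Figure D3:**
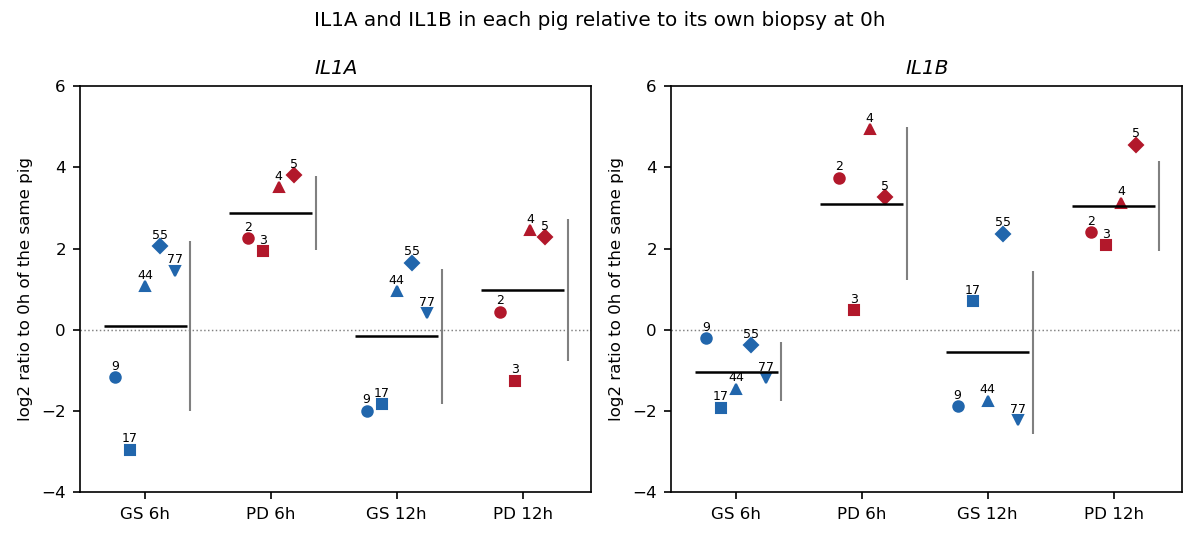
Log2 ratio of IL1A (left) and IL1B (right) at 6h and 12h to the 0h biopsy of the same pig, with the pig number at each point, the mean as a black bar and 1 SD on each side as a grey line (GS 5 pigs, PD 4 pigs). At 6h every PD lung lies above every GS lung for IL1B, from 0.48 to 4.94 against −1.91 to −0.20, and for IL1A the GS lungs 9 and 17 lie apart from the other 3.

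IL1A was not tested against IL1B over time. In PD it went from 45.5, 40.1, 14.3 and 10.7 CPM at 0h to 219, 154, 163 and 149 CPM at 6h and 62.1, 16.9, 78.9 and 52.0 CPM at 12h, in pigs 2, 3, 4 and 5. The 6h values were thus close together although the starting values were not, and all 4 lungs were lower again at 12h. The PD change at 6h was 6.57-fold (log2 2.72 ± 0.55, adjusted p = 0.0827, not called), the value at 12h was log2 1.0 ± 0.55, and the step from 6h to 12h was log2 −1.71 ± 0.53 (adjusted p = 0.392). Both IL1A and IL1B at 6h in PD passed the call without the replicate block (adjusted p = 0.0379 and 0.0395), without the 12h library of PD pig 2 (0.0140 and 0.0291) and with DESeq2 (5.86e-05 and 6.42e-05), but not when any of the 4 PD pigs was left out.

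In GS, IL1A split by pig. Pigs 9 and 17 went from 48.3 and 60.3 CPM at 0h to 21.6 and 7.79 at 6h and 12.2 and 16.9 at 12h. Pigs 44, 55 and 77 went from 22.1, 15.3 and 20.8 CPM to 46.7, 63.8 and 57.2 and then to 42.7, 48.3 and 27.6. Over all 5 the log2 change was −0.05 ± 0.61 at 6h and −0.47 ± 0.60 at 12h. In pigs 44, 55 and 77 alone the log2 change of IL1A was 1.52 ± 0.24 at 6h and 1.01 ± 0.24 at 12h, whereas in pigs 9 and 17 it was −1.94 ± 0.46 and −1.92 ± 0.45. The split was made after these values were seen, so no p is given for them. IL33 showed the split too, at log2 0.16 and −0.17 in the deeper set and −1.63 and −1.85 in the shallower set, the latter called at both times. The sets differ in depth as given above, and pig 17 also had low mitochondrial shares. Whether depth, the way the RNA was extracted or the animals themselves go with this split was not tested, since the labels do not give the extraction per sample.

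IL18, which caspase-1 also matures, and the nuclear alarmin IL33 were called against 0h in neither group with all pigs. IL18 was at log2 0.10 ± 0.28 and −0.34 ± 0.28 in GS and 0.73 ± 0.70 and 0.41 ± 0.66 in PD at 6h and 12h, and was not called. The GS sets gave 0.11 and 0.10 (pigs 44, 55 and 77) and 0.16 and −1.03 (pigs 9 and 17), none called. PD pigs 2 and 4 reached 157 and 129 CPM at 6h from 42.4 and 20.9, while PD pig 3 went from 54.7 to 13.5 and PD pig 5 from 20.3 to 24.5. IL33 was at log2 −0.64 ± 0.33 and −0.94 ± 0.33 in GS, where the 12h value had an adjusted p of 0.0358 but a change under 2-fold, and at 0.20 ± 0.58 and −0.57 ± 0.62 in PD. In GS at 12h it was called lower without pig 44 (−1.11, adjusted p = 0.0454) or pig 55 (−1.19, adjusted p = 0.0280).

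Whether dialysis altered the change from 0h was tested as the difference between the changes of PD and GS in one fit of all 27 libraries. No gene was called at 6h or at 12h (0% of 17884 genes). With edgeR, 5.85% and 5.98% of all genes had an unadjusted p under 0.05 at 6h and 12h. DESeq2 called 7 genes at 6h (0.0391%), with IL1B the only member among them (adjusted p = 0.0133), and 15 at 12h (0.0839%) with no member. On simulated counts for the 12h comparison, DESeq2 made 99 false calls and edgeR 11. The 6h comparison, in which DESeq2 called IL1B, was not simulated. For IL1B the PD change was larger by log2 4.33 ± 1.05 at 6h (95% interval 2.15 to 6.52, unadjusted p = 0.000504, adjusted p = 0.783) and by 3.28 ± 1.05 at 12h (1.09 to 5.47, unadjusted p = 0.00531, adjusted p = 0.677). For IL1A the difference was 2.74 ± 0.88 at 6h (0.90 to 4.59, unadjusted p = 0.00555) and 1.45 ± 0.89 at 12h (−0.41 to 3.31, unadjusted p = 0.12). These were the 2 members with an unadjusted p under 0.05 at 6h, and IL1B the only one at 12h.

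The per-pig ratios gave differences of similar size. At 6h the log2 ratio of IL1B to 0h was −0.20, −1.91, −1.45, −0.38 and −1.19 in GS pigs 9, 17, 44, 55 and 77 and 3.74, 0.48, 4.94 and 3.26 in PD pigs 2, 3, 4 and 5. All 5 GS lungs were lower and all 4 PD lungs higher than at 0h. The ratios of the groups did not overlap, as was so for 3.12% of 17884 genes in either direction. The mean difference was 4.13 (two-sided exact permutation p = 0.00794, the smallest the 126 splits allow, adjusted p = 0.336). At 12h the ratios were −1.87, 0.70, −1.74, 2.37 and −2.22 in GS and 2.41, 2.08, 3.13 and 4.56 in PD, which overlap at GS pig 55 (difference 3.6, exact permutation p = 0.0238, adjusted p = 0.701). For IL1A at 6h the ratios were −1.16, −2.95, 1.08, 2.06 and 1.46 in GS and 2.26, 1.94, 3.51 and 3.8 in PD, which overlap (difference 2.78, exact permutation p = 0.0397, adjusted p = 0.467). Against the deeper GS set alone the IL1A difference at 6h was log2 1.2 ± 0.69, and against the shallower set 4.65 ± 0.93. The IL1B difference hardly moved between the sets, at 4.51 ± 1.19 and 4.06 ± 1.32.

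For the other 7 members the difference in change lay between −0.62 and 0.82 at 6h and between −0.86 and 1.03 at 12h. The intervals are wide: that of IL1R1 at 12h was −0.48 to 2.50, of IL1RAP −0.37 to 2.43 and of IL1R2 −1.90 to 1.34. CASP1 at 12h, −0.86 ± 0.42, had an unadjusted p of 0.0508.

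Before perfusion the groups already differed in 5 of 9 members, where 29.1% of 16477 genes tested were called (15.2% higher, 13.9% lower). IL1R1 was lower in PD (log2 difference −1.65 ± 0.30, adjusted p = 0.000994), as was IL1B (−1.21 ± 0.43, adjusted p = 0.0396). CASP1 (1.12 ± 0.23, adjusted p = 0.00246), IL18 (1.29 ± 0.34, adjusted p = 0.0101) and IL33 (1.15 ± 0.39, adjusted p = 0.0318) were higher in PD. IL1R1 and CASP1 did not overlap between the groups at 0h. Of all 17884 genes 32.4% did not either (15.4% with PD higher, 16.9% with PD lower). IL1R1 was called in every alternative run, whereas the other 4 each lost their call when at least 1 pig was left out (IL1B without GS pig 9, 44 or 55 or PD pig 2 or 5, IL33 without GS pig 9, 44, 55 or 77 or PD pig 2 or 3, IL18 without PD pig 3, and CASP1 without GS pig 55). The IL18 and CASP1 calls were lost on size, at log2 differences of 0.98 (adjusted p = 0.0378) and 0.98 (adjusted p = 0.00712), just under 2-fold. At 0h no perfusate had yet been applied, so group, animals and library depth cannot be told apart in these values.

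**Figure D4:**
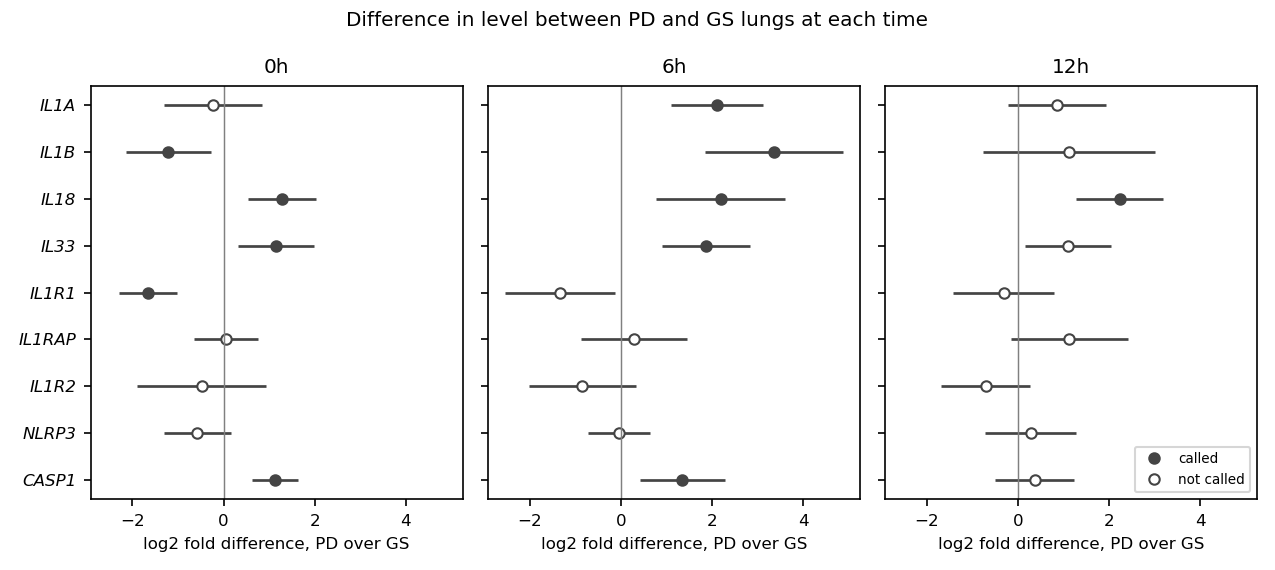
Difference in level between PD (4 pigs) and GS (5 pigs) at 0h, 6h and 12h, as log2 fold difference with its 95% confidence interval, with filled points for called genes. IL18, IL33 and CASP1 lie to the right of zero at all 3 times, and IL1A and IL1B move from near or left of zero at 0h to 2.12 and 3.36 at 6h.

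At 6h 5 of 9 members were called, all higher in PD, where 21.1% of 16201 genes were called (11.1% higher, 10% lower). IL1B was 10.2-fold higher (log2 3.36 ± 0.71, adjusted p = 0.00601), IL1A 4.33-fold (2.12 ± 0.47, adjusted p = 0.00776) and IL33 3.68-fold (1.88 ± 0.45, adjusted p = 0.0109). These 3 did not overlap between the groups, as was so for 19.9% of all genes (11.1% with PD higher, 8.82% with PD lower). They kept their call in every alternative run. For IL33 the PD lungs held 189, 56.0, 52.2 and 55.9 CPM and the GS lungs 16.9, 10.3, 33.5, 29.6 and 29.1. IL18 (4.57-fold, log2 2.19 ± 0.66, adjusted p = 0.0301) and CASP1 (2.55-fold, log2 1.35 ± 0.44, adjusted p = 0.0394) overlapped. IL18 lost its call without GS pig 17, 44, 55 or 77 or PD pig 2 or 4, and CASP1 without GS pig 9, 44, 55 or 77 or PD pig 2 (adjusted p = 0.147 and 0.219 without PD pig 2). IL18 was also lost without the low-count filter (adjusted p = 0.0891). IL1R1 was at −1.33 ± 0.56 and was not called (adjusted p = 0.0970). DESeq2 called it lower in PD at −1.31 (adjusted p = 0.0482), where it called 24.8% of all genes. Without PD pig 4, IL1R1 was called lower in PD at −2.56 (adjusted p = 0.00227), as was IL1R2 at −1.88 (adjusted p = 0.0124).

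At 12h IL18 was the only member called, 4.69-fold higher in PD (log2 2.23 ± 0.43, adjusted p = 0.00557), where 19.3% of 16431 genes were called (10.2% higher, 9.14% lower). Its PD levels of 41.0, 29.8, 107 and 36 CPM did not overlap the GS levels of 10.3, 7.37, 9.05, 17.2 and 13.3, as was so for 20.2% of all genes (9.86% with PD higher, 10.3% with PD lower). IL1B was at 1.12 ± 0.87 and was called without GS pig 55 (2.79, adjusted p = 0.0152). Without the 12h library of PD pig 2, IL1RAP (1.47, adjusted p = 0.0479) and IL33 (1.32, adjusted p = 0.0246) were called as well. DESeq2 called IL33 with all libraries (1.12, adjusted p = 0.0472) among 25.5% of all genes. CASP1 was at 0.36 ± 0.39 and IL1R1 at −0.31 ± 0.51, both not called.

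Cell markers also differed between the groups, at times when 29.1% (0h), 21.1% (6h) and 19.3% (12h) of all genes were called. Summed alveolar epithelial markers at 0h, 6h and 12h ran from 7585 to 10389, 5836 to 13614 and 7230.4 to 15961 CPM in GS and from 27267 to 78407, 16187 to 49119 and 18135 to 91618 in PD, of which SFTPC alone was 19106 to 74816 CPM in PD at 0h. Of the 7 tested, SFTPC was called higher in PD at all 3 times and SFTPD at 0h, while SFTPB was lower at 0h and 12h, with a median of 435 CPM in PD against 1350 in GS at 0h. The median log2 difference of the 7 was 0.16, −0.17 and 0.15 at 0h, 6h and 12h. Of 7 endothelial markers CLDN5 was higher and CDH5 lower in PD at all 3 times, KDR was lower at 0h and EMCN higher at 6h. Of the neutrophil markers, S100A8 was called higher and CSF3R lower in PD at all 3 times, S100A12 higher at 0h and 6h, and CXCR2 lower at 12h. Of the 10 monocyte and macrophage markers, AIF1 and FCGR1A were higher and CD68, CSF1R and ITGAM lower in PD at all 3 times, and MARCO lower at 6h. All calls among the 7 lymphocyte markers were lower in PD, CD79A at all 3 times, GNLY at 0h and CD3D at 12h. Of 6 fibroblast markers DCN was higher and COL1A1 and PDGFRA lower in PD, at 0h only. HBB, a red cell gene, was higher in PD at each time. Their part in the level differences of the members was not tested.

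Between 6h and 12h no gene was called in GS or in PD (0% of each), with 4.74% and 10% of genes at an unadjusted p under 0.05 in edgeR. DESeq2 called 1 gene in GS (0.00538%) and 231 in PD (1.49%). Among the members CASP1 had the smallest p in both groups, with −0.65 ± 0.20 in GS (unadjusted p = 0.00520) and −1.53 ± 0.41 in PD (unadjusted p = 0.00314, adjusted p = 0.392). In PD it was called by DESeq2 (adjusted p = 0.0342) and in the fit of all libraries (adjusted p = 0.0207). IL1A and IL1R2 also had an unadjusted p under 0.05 in PD (log2 −1.71 and 1.31).

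Some of the further genes of the pathway were called too. Of 13 IL-1 response genes tested, 6 rose in GS at both 6h and 12h, namely IL6, CSF3, NFKBIA, TNFAIP3, ICAM1 and ZC3H12A, where 5.5% and 6.99% of all genes were called higher. The list was written with earlier results of these data known, so its direction is no independent evidence. In PD, IL6 (log2 3.77 ± 0.46) and TNFAIP3 (3.35 ± 0.47) rose at 6h, and the same 6 with SELE, an endothelial adhesion molecule (4.68 ± 1.2), rose at 12h, where 0.135% and 3.22% of all genes were called higher at 6h and 12h. None fell. No gene at all was called in PD at 6h without pig 3, 4 or 5, nor at 12h without pig 3 or 5, so these PD calls were lost as well. The median log2 change of the 13 was 1.5 and 1.51 in GS and 2.11 and 1.96 in PD at 6h and 12h. Many other signals induce these genes, and NFKBIA, TNFAIP3 and ZC3H12A are known as brakes on inflammatory signalling. Between the groups no response gene was called in the difference of changes, whose median was 1.49 at 6h and 0.80 at 12h, where all genes tested had 0.02 and −0.01. At an unadjusted p under 0.05 (edgeR) there were 5 of 13 at 6h and 1, IL6, at 12h, against 5.85% and 5.98% of all genes. In level, CCL2 was called higher and TNFAIP3 lower in PD at 0h, CXCL2, CCL2 and SELE higher at 6h, and IL6, CCL2 and SELE higher at 12h. Of all genes, 29.1%, 21.1% and 19.3% were called in these level comparisons.

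Of the 10 inflammasome and pyroptosis genes tested, 5 were called in GS at both times and 4 in PD at 12h, where 11.1%, 15.7% and 5.98% of all genes were called. PYCARD, the adaptor that links NLRP3 to caspase-1, fell with CASP1. Its log2 change was −2.19 ± 0.41 and −2.38 ± 0.40 in GS at 6h and 12h and −2.94 ± 0.74 in PD at 12h. P2RX7, the ATP-gated channel that can trigger the NLRP3 inflammasome, fell as well (−2.01 and −2.32 in GS and −3.48 in PD at 12h), as did NLRP12 (−2.0, −1.55 and −2.69). PANX1, a channel that releases ATP, rose by 1.08 and 1.2 in GS and, at 12h, by 1.55 in PD. TXNIP rose by 1.2 and 1.54 in GS and was not called in PD (2.17 and 1.4, adjusted p = 0.275 and 0.213). The PD calls at 12h were lost without pig 3 or pig 5, where no gene was called. In PD at 6h none of the 10 was called. GSDMD, the pore-forming substrate of caspase-1, was at 0.14 and −0.24 in GS and −0.93 and −0.05 in PD, none called. The levels of GSDMD and GSDME were called higher in PD at 0h and that of TXNIP lower at 12h. Of all genes 29.1% and 19.3% were called in level at these times.

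Of 11 signal relay genes 1, IRAK2, was called against 0h, higher in GS at 6h (log2 1.0 ± 0.20, adjusted p = 0.00333). Of all genes 11.1% were called there (5.5% higher). No relay gene was called against 0h in GS at 12h or in PD. MYD88, the first adaptor of the receptor, lay between 0.18 and 0.48 in the 4 comparisons with 0h. The level of IRAK3 was called lower in PD at 0h and that of IRAK1 at 6h, where 13.9% and 10% of all genes were called lower. Of 7 further receptors 4 were tested, and 1, IL18RAP, a subunit of the IL-18 receptor, fell in GS at both times. Of all genes, 5.56% and 8.66% were called lower there at 6h and 12h. IL1RL2 was called higher in level in PD at 6h, where 11.1% of all genes were called higher. None of 7 further ligands and binding proteins was tested, since 6 were matched by name to no row and IL18BP held 39 counts in all.

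Among 13151 genes tested in both groups, the levels of CCL4 (Pearson r 0.85), CCL3L1 (0.81), ZNF445, PDE3A and IFIT2 (each 0.78 to 0.79) followed IL1B most closely over the 27 libraries after removal of the mean of each pig. Those of GRAMD2B (0.99), SNORD96, RRS1, MACO1 and DDX21 (each 0.98) followed IL1R1. CCL4 and CCL3L1 encode macrophage inflammatory chemokines, have close copies and are uncertain in these counts. These correlations are descriptions over libraries that share pigs, times and depth.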

How the data were processed

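Total RNA of 27 lung biopsies (9 pigs at 3 times) was made into stranded, paired-end mRNA libraries. The authors demultiplexed with bcl2fastq 2.2.18.12, trimmed with Cutadapt 1.15, aligned with TopHat2 2.0.14 to Sscrofa11.1 with the Ensembl annotation, and counted reads per gene (featureCounts of Subread 1.6.0, named in the submitters' processing notes). They deposited the raw counts, which were used here. Strand and multi-mapping settings are not given in the sources used here. RNA was extracted by either of 2 kits, not given per sample, which may shift levels between libraries. Every library differed from every other by more than sampling noise (chi-square per degree of freedom at least 39.8).

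Genes passing filterByExpr were fitted with edgeR 4.0.16 (quasi-likelihood, robust, TMM, R 4.3.3), with the pig as a block for changes within a group and for the difference between the changes of PD and GS. Levels at each time were compared in 9 libraries without a block. Benjamini-Hochberg adjustment ran over all genes tested, and a gene was called at an adjusted p under 0.05 with a change of 2-fold or more. All p-values not named as exact come from edgeR's test or from the tool named beside them. Per-pig log2 ratios to 0h (0.5 added to each value, 2 as an alternative) were compared by two-sided exact permutation and Wilcoxon tests over 126 splits, with smallest possible p of 0.00794 and 0.0159. Other tools were DESeq2 1.42.0, limma 3.58.1, Python 3.11.15, numpy 2.4.6, scipy 1.17.1, pandas 2.3.3 and matplotlib 3.10.9.

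Libraries were paired by animal: residuals of libraries of the same pig correlated at 0.526 (0.342 to 0.740) in GS and 0.109 (−0.283 to 0.488) in PD, against −0.119 and −0.0322 between pigs. On simulated counts edgeR recovered 92% and 97% of genes changed by log2 2 and 3 for GS at 12h against 0h (18432 genes). For PD (15940 genes) it recovered 34% and 80%, for the difference in change at 12h (18204 genes) 44% and 76%, and for levels at 0h (17011 genes) 63% and 90%. DESeq2 recovered as many or more but made more false calls, 15, 32, 99 and 76 in these 4 comparisons against 6, 3, 11 and 15 for edgeR. The simulated counts used dispersions fitted with the pig as a block, and held no differences between pigs. For levels, which are compared between pigs without a block, the recovery and false calls of both tools may therefore be too favourable. The named genes are all members with at least 10 counts in some library, pathway genes called against 0h, and for IL1B and IL1R1 the 5 genes most correlated with each. Pathway genes named without a call against 0h, and marker genes, were added after their values were seen. The members and lists were chosen with earlier results of these data known. Symbols came from the table for 16719 genes and by NCBI number for 985, and 98 of 115 listed genes were matched. Alternatives were the fit without the block, DESeq2, its size factors in edgeR, the table without the low-count filter, calls without the fold threshold, one fit of all libraries and leaving out each pig. Those added after seeing the data left out the 12h library of PD pig 2 or used GS pigs 44, 55 and 77 or 9 and 17 alone.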

Additional observations from a re-analysis of the deposited data

Results flagged for a closer look

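In 8 of 54 sets of 4 or 5 levels (1 gene in 1 group at 1 time), 1 library stood apart from the others. Chance gives about 5% of sets, or 2.7, only for independent and normally distributed values. The levels were CPM without a log and the sets share libraries, so the 8 cannot be read as an excess over chance. Of 36 sets of log2 ratios to 0h none held such a library, where chance under the same assumption gives 1.8. IL1B in GS at 12h was highest in pig 55 (23.6 CPM). In PD at 6h, pig 4 was highest for IL1R1 (572 CPM) and for IL1R2 (14.5 CPM), and pig 2 was highest for IL33 (189 CPM) and for CASP1 (94.3 CPM). In PD at 12h, IL1R2 was lowest in pig 2 (5.18 CPM), in the library with the lowest mitochondrial share, and IL18 was highest in pig 4 (107 CPM). IL18 in GS at 6h was highest in pig 9 (40.3 CPM).

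The IL1B log2 ratio of 6h to 0h was above zero in every PD pig and below zero in every GS pig, with a mean difference of 4.13. The test of the difference gave an unadjusted p of 0.000504 and an adjusted p of 0.783 in edgeR, and an exact permutation p of 0.00794 with an adjusted p of 0.336.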

How the results depend on the processing

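Of the values of single members under the alternatives, 1234 kept their call or their lack of one, 49 lost a call and 28 gained one. The 1234 include uncalled values that changed sign with a shift of no more than 1 SE. An example is IL1R2 in the difference in change at 6h, −0.62 with all pigs and 0.095 with GS pigs 44, 55 and 77. Another 19 changed sign with a larger shift and no call, and 2 reversed, with a change of sign and a gained call. The causes were not tested. The reversals were IL1A in GS at 6h (1.52) and 12h (1.01) with pigs 44, 55 and 77 alone. Without the replicate block, called members went from 4 to 2 in GS at 6h and from 0 to 2 in PD at 6h, and the block changed no other count of members. GS at 6h also gave 2 with pigs 44, 55 and 77 alone (IL1R1, and IL1A as a gained call) and 5 with pigs 9 and 17 (IL33 added). It gave 2 to 4 when single pigs were left out (2 without pig 17). GS at 12h (4) gave 4 to 5 when single pigs were left out (IL33 added without pig 44 or 55), 5 with pigs 44, 55 and 77 and 6 with pigs 9 and 17. PD at 6h gave 2 with DESeq2, without the filter, in one fit of all libraries and without the 12h library of pig 2. PD at 12h gave 0 to 5 when single pigs were left out (5 without pig 2, 0 without pig 3, 2 without pig 4, 0 without pig 5). PD at 12h against 6h gave 1 with DESeq2 and in one fit of all libraries, and the difference in change at 6h gave 1 with DESeq2. For levels, leaving out single pigs gave 2 to 5 at 0h, 3 to 6 at 6h and 1 to 3 at 12h, where DESeq2 gave 2 and leaving out the 12h library of PD pig 2 gave 3.

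Counts over all genes moved more. GS at 6h (2057) gave 1123 without the replicate block, 1219 in one fit, 5295 without a fold threshold, 1318 without pig 44 and 876 with pigs 9 and 17. GS at 12h (2911) gave 1896 without the block, 7136 without a fold threshold and 1324 with pigs 9 and 17. PD at 6h (22) gave 100 without the block, 428 with DESeq2, 103 without the filter, 479 in one fit, 252 without the 12h library of pig 2 and 0 to 98 without single pigs. PD at 12h (930) gave 1460, 2560, 3300 and 4161 without the block, with DESeq2, in one fit and without that library, and 0 to 3826 without single pigs. PD at 12h against 6h (0) gave 231 with DESeq2 and 414 in one fit. The difference in change (0 at both times) gave 7 and 15 with DESeq2 and 248 and 151 without PD pig 2. Levels at 6h (3418) gave 1658 without PD pig 2, and at 12h (3179) 1958, 2083, 2040 and 2114 without GS pigs 44, 55, 77 and PD pig 5. The lower depth of PD (14650700 to 21820935 counts) limits IL1B at 0h, where a library held as few as 13 counts. GS and PD had biological coefficients of variation of 0.259 and 0.489.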
